A study of Mus musculus with 10 samples.

Results

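Pycard, Casp1 and Casp4 encode the adaptor ASC, caspase-1 and caspase-4 (often called caspase-11 in the mouse), and the first 2 are the genes deleted in the mice of this series. All probe sets that the array annotation pairs with exactly 1 of these symbols were taken, which gave 5 of the 45037 probe sets that are no controls: 3 for Pycard, 1 for Casp1 and 1 for Casp4. A further 551 probe sets carry several symbols, and 0 of these name a member. All 5 are described on each of the 10 arrays, with no filter on low values.

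The samples are white fat from the epididymal pad, a visceral depot near the testis, of 3 ASC-/- mice, 3 Casp1-/- mice and 4 wild-type (WT) mice, with 1 array per mouse. All were males on a C57/Bl6 background, began a diet with 45% of its energy from fat at an age of 8 to 12 weeks and ate it for 16 weeks, so a lean or chow-fed group is not part of the comparison. One label field writes ASC1 null for the mice whose titles say ASC-/-; the series' design text calls them ASC-null. The labels do not say how either null allele was made or from which line it came. As background, Casp1-null mice derived from embryonic stem cells of another mouse strain are known to carry that strain's defective Casp4 allele next to the deletion, and the part of such an allele here was not tested.

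Inflammasomes are assembled when a sensor protein such as NLRP3 detects damage or microbial products. The sensor recruits ASC through a pyrin domain, ASC recruits pro-caspase-1 through a caspase recruitment domain, and caspase-1 then cuts the precursors of interleukin-1beta and interleukin-18 and the pore-forming protein gasdermin D. Caspase-4 binds bacterial lipopolysaccharide itself and cuts gasdermin D without ASC, in what is called the noncanonical inflammasome. In obese fat these genes are known to be expressed in macrophages, which gather around dying adipocytes. Arrays of whole tissue do not show which cells expressed them here.

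The 250 bases before the start of each of the 3 genes are shown from RefSeq (GRCm38.p6, a build not tied to the array design). All 3 members matched an entry. Pycard lies on the minus strand at chr7:127993868-127994117, Casp1 on the plus strand at chr9:5298267-5298516 and Casp4 on the plus strand at chr9:5308599-5308848. Capitals mark matches to 5 motifs searched on both strands.
Pycard: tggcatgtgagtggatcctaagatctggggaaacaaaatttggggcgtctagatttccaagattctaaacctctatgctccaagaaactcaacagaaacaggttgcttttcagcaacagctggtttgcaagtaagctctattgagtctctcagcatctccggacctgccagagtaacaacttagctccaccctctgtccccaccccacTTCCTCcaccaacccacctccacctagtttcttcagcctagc
Casp1: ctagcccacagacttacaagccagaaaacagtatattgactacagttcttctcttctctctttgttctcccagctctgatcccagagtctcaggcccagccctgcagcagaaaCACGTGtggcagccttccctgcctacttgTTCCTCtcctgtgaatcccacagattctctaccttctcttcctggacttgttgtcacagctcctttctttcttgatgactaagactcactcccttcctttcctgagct
Casp4: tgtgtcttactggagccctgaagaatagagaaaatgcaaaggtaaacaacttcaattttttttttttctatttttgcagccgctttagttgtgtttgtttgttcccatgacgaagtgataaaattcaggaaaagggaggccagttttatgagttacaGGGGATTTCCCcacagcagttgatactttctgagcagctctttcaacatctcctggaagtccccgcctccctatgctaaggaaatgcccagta
The motifs were the ETS core GAGGAA, the core of the site for PU.1 and its relatives, the IRF core (2 copies of GAAA with any 2 bases between them), the STAT site TTCNNNGAA, the E-box CACGTG and the kappaB site. The ETS core was found once before Pycard and once before Casp1, on the minus strand in both, and 23.1% of 27025 promoter windows of the same length hold it. Casp1 also had an E-box, as 6.05% of windows do. Casp4 had 2 overlapping matches to the kappaB site, which 3.75% of windows hold. Its start lies after that of Casp1 on the same strand with no other gene between them in the RefSeq order. The IRF core (3.04% of windows) and the STAT site (7.18%) had no match in these 3 windows. These are matches of letters and show no binding.

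All values are log2 signals. Adipocyte markers had array means of 11.01 to 11.36 in ASC-/-, 11.57 to 11.68 in Casp1-/- and 10.60 to 11.50 in WT fat, with Adipoq, Fabp4 and Lep among the brightest and 1 of the 7 markers, Pnpla2, within the background range in every genotype. The 23 nonspecific control probe sets gave the background, with array medians of 2.91 to 3.15 and single values of up to 5.0. The mean of 20 pan-macrophage markers was 11.03, 10.72 and 10.58 in ASC-/-, 9.40, 9.11 and 9.43 in Casp1-/- and 9.98, 10.40, 11.35 and 10.94 in WT. The 3 Casp1-/- arrays thus lay below every other array. The poly-A controls, RNAs spiked into each sample, averaged 6.21 to 6.30 on ASC-/- arrays, 7.51 to 8.07 on Casp1-/- arrays, 7.80 on WT replicate 1 and 5.76 to 6.50 on WT replicates 2 to 4. The labels name no batch, but values with these 2 sets of arrays as a block are given beside the results for Pycard, Casp1, Casp4, the macrophage markers and the partner genes that passed. In the Casp1-/- comparison they rest on WT replicate 1 alone, 1 array with no spread of its own. The 3' minus 5' signal of actin, a measure of RNA quality, was 0.54 to 0.67 on ASC-/- arrays, 0.82 to 0.98 on Casp1-/- arrays and 0.46 to 1.05 on WT arrays. The null genotypes did not overlap in it, and both lay within the WT range. Markers of the epididymis were brighter on Casp1-/- replicate 2 (mean 5.57), WT replicate 1 (4.68) and WT replicate 2 (4.70), while the remaining arrays lay between 3.29 and 3.71. WT replicate 1, the lone WT array of the block values, thus had epididymis signal. It also had the highest actin signal of all arrays (1.05) and the lowest macrophage marker mean of the WT arrays (9.98). Lymphocyte markers averaged 4.02 to 4.70 and neutrophil markers 5.20 to 5.55 over the arrays.

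Pycard, the adaptor gene, was read by probe set 1417346_PM_at. Its signal was 3.20, 3.71 and 3.30 in ASC-/- fat, 8.77, 8.39 and 8.62 in Casp1-/- fat and 9.10, 9.65, 10.57 and 9.97 in WT fat. The 3 genotypes formed 3 separate levels with no overlap, ASC-/- lowest, Casp1-/- in the middle and WT highest. In ASC-/- fat between 1 and 7 of the 23 background controls on the same array were at least as bright as Pycard, so its level there cannot be told from background.

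The ASC-/- mean of 3.40 ± 0.27 (SD, n = 3) stood against 9.82 ± 0.62 (SD, n = 4) in WT, a difference of -6.42 ± 0.29 (SE, limma adjusted p = 2.26e-05). This was the most negative change of all 45037 probe sets tested. Since the ASC-/- value is at background, the fold is a bound on the means, which leaves out the spread between arrays. Taking each ASC-/- array at its brightest background control, mean Pycard was at least 32.7-fold lower than in WT and at least 13.9-fold lower than in Casp1-/- fat. The threshold was an adjusted p under 0.05. Over all probe sets, 0.0244% passed it in this comparison, 0.0155% as higher and 0.00888% as lower in ASC-/-, and 2.35% had ASC-/- arrays that all lay below the WT arrays. Of the 5 member probe sets, this 1 passed. With the spike-in sets as a block the difference was -6.66, also past the threshold.

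The other 2 Pycard probe sets did not follow it. Probe set 1417347_PM_at, which the annotation ties to the same sequence record, was at 3.08, 3.00 and 3.16 in ASC-/-, 3.35, 3.13 and 3.23 in Casp1-/- and 3.20, 3.42, 3.65 and 3.35 in WT. The ASC-/- arrays lay just below the WT arrays, but the difference of -0.33 ± 0.11 (SE) missed the threshold (limma adjusted p = 1), and all 10 values were within the background range. Probe set 1446926_PM_at, designed on another record, was at 3.65 to 4.08 in ASC-/-, 3.62 to 4.06 in Casp1-/- and 3.52 to 3.99 in WT, and the genotypes overlapped. Neither of these probe sets can show the deletion, since they were at background in WT too.

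**Figure D1:**
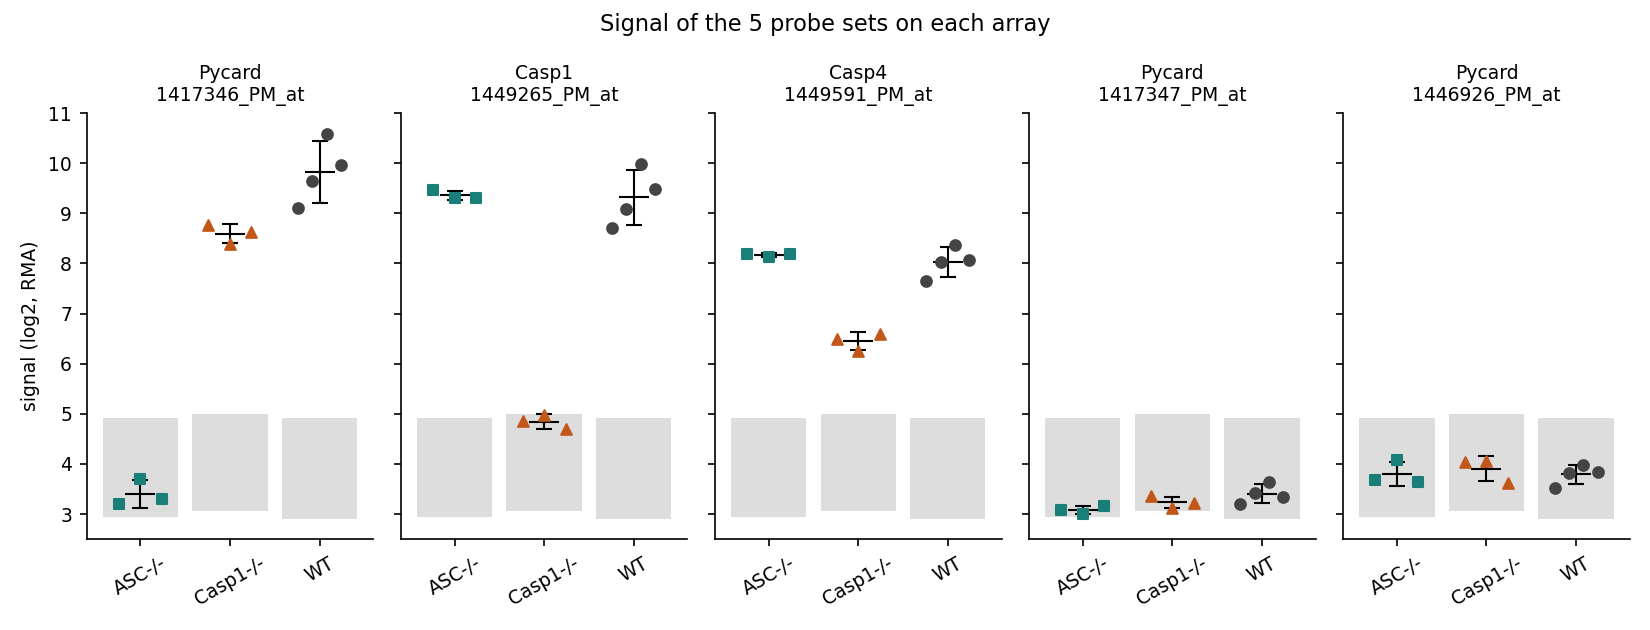
Log2 signal of the 5 probe sets (one panel each) in ASC-/- (squares), Casp1-/- (triangles) and WT (circles) fat, 1 point per array; the lines give mean and SD, and the grey blocks run from the lowest array median to the brightest single value of the background controls in that genotype. Pycard lies within the grey block in ASC-/- and Casp1 in Casp1-/- fat, Casp4 stands above it in every genotype, and the last 2 Pycard probe sets lie within it in all.

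In Casp1-/- fat, where Pycard is not the deleted gene, it was lower than in WT by 1.23 on the log2 scale (SE 0.29), at 8.59 ± 0.19 (SD, n = 3) against 9.82 ± 0.62 (SD, n = 4), a 2.35-fold fall with a limma adjusted p = 0.0438. The 95% interval of the fold ran from 1.5 to 3.67. All 3 Casp1-/- arrays were below the lowest WT array, as were those of 8.86% of all probe sets. Past the threshold here were 4.86% of all probe sets, 2.52% as lower and 2.34% as higher. The call was lost when any 1 of the Casp1-/- or ASC-/- arrays, WT replicate 2 or WT replicate 4 was left out (adjusted p = 0.0553 to 0.145, differences from -1.32 to -1.13). With the spike-in sets as a block, where the WT side is replicate 1 alone, the difference was -0.51 (limma adjusted p = 0.663). With the actin signal as a covariate it was -1.0 (adjusted p = 0.0399).

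Macrophage markers moved with this difference. Of the 20 pan-macrophage markers 14 fell past the threshold in Casp1-/- fat and 20 were below WT, with a median of -1.46, against a median of 0.015 over all probe sets. Under the spike-in block 0 of the 20 passed and 18 were below WT (median -0.69), and with the actin covariate 15 passed (median -1.20). Their array means did not overlap either, at 9.11 to 9.43 in Casp1-/- and 9.98 to 11.35 in WT. In tissue RNA, fewer macrophages and less RNA per macrophage cannot be told apart. Pycard minus the marker mean of the same array was -0.63, -0.72 and -0.81 in Casp1-/- fat and -0.88, -0.76, -0.78 and -0.97 in WT fat. Relative to the markers the direction was the opposite one, though not past its spread: the means were -0.72 ± 0.093 (SD, n = 3) and -0.85 ± 0.096 (SD, n = 4), a difference of 0.13 (exact permutation test, two-sided p = 0.171, where the smallest p possible with 3 against 4 is 0.0571).

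Casp1, the protease gene, was read by 1 probe set, 1449265_PM_at. Its signal was 9.47, 9.30 and 9.30 in ASC-/- fat, 4.86, 4.98 and 4.69 in Casp1-/- fat and 8.71, 9.09, 9.99 and 9.49 in WT fat. The Casp1-/- arrays stood far below all the others, and the ASC-/- arrays lay within the WT range.

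The Casp1-/- mean was 4.85 ± 0.14 (SD, n = 3) against 9.32 ± 0.55 (SD, n = 4) in WT, a difference of -4.47 ± 0.25 (SE, limma adjusted p = 2.89e-04), the most negative of all 45037 probe sets and the one with the smallest p. Of the 5 member probe sets, 3 passed in this comparison, those of Casp1, the deleted gene, of Casp4 and 1 of Pycard, each of them lower. Over all probe sets 4.86% passed, 2.52% as lower. The Pycard call depended on single arrays, as given above. The fitted fall was 22.2-fold, with a 95% interval from 15.2 to 32.5. Each Casp1-/- array was also taken at its brightest background control, or at its own Casp1 value where that was higher. The Casp1 mean was then 20.2-fold lower than in WT, a value that allows for background but not for the spread between arrays. The remaining signal was near the top of the background range: on Casp1-/- replicates 1 and 3 a single control of 23 was as bright, and on replicate 2 none was, the brightest there being 4.75 against 4.98 for Casp1. Whether this is remaining transcript or probe background was not tested. With the spike-in sets as a block, where the WT side is 1 array, the difference was -3.86 (limma adjusted p = 0.00224), and with the actin covariate it was -4.25 (adjusted p = 2.41e-05).

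In ASC-/- fat Casp1 was 9.36 ± 0.095 (SD, n = 3) against 9.32 ± 0.55 (SD, n = 4) in WT, a difference of 0.036 with a 95% interval from -0.51 to 0.58 on the log2 scale (limma adjusted p = 1). The interval still allows a change of up to 1.5-fold upward or 1.43-fold downward. The difference was -0.17 with the spike-in sets as a block. Set against the macrophage markers of the same array, Casp1 lay at -1.57, -1.41 and -1.28 in ASC-/- and -1.27, -1.31, -1.37 and -1.44 in WT, a difference of -0.072 (exact permutation test, two-sided p = 0.457).

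Casp4, the lipopolysaccharide-binding caspase, was read by 1 probe set, 1449591_PM_at. Its signal was 8.18, 8.12 and 8.19 in ASC-/- fat, 6.50, 6.24 and 6.60 in Casp1-/- fat and 7.64, 8.03, 8.37 and 8.06 in WT fat. Every array was above all 23 background controls, so Casp4 was lower but still measured in Casp1-/- fat. The ASC-/- arrays lay inside the WT range and were closer together than the WT arrays, with an SD of 0.036 against 0.30.

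In Casp1-/- fat Casp4 fell by 1.58 on the log2 scale (SE 0.15), to 6.45 ± 0.18 (SD, n = 3) against 8.03 ± 0.30 (SD, n = 4) in WT, which is 2.99-fold with a 95% interval from 2.36 to 3.78 (limma adjusted p = 0.00441). By p it stood 13th among 45037 probe sets, and by size 293rd among the falls. The call held without any single array (-1.71 to -1.46). With the spike-in sets as a block, where the WT side is 1 array, the difference was -1.20 (limma adjusted p = 0.0245). With the actin covariate it was -1.48 (adjusted p = 0.00539).

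The macrophage markers moved with Casp4 as well. Casp4 minus the marker mean was -2.90, -2.86 and -2.83 in Casp1-/- fat and -2.34, -2.38, -2.98 and -2.87 in WT fat. The Casp1-/- values lay within the WT range, near WT replicates 3 and 4 and below WT replicates 1 and 2. Replicates 1 and 2 had the WT marker means (9.98 and 10.40) nearest to those of Casp1-/- arrays (9.11 to 9.43). Over the WT arrays Casp4 spanned 0.73 and the marker mean 1.37, so the 2 did not move 1 for 1. Whether Casp4 differs at an equal marker level was not tested. The mean difference in Casp4 minus the marker mean was -0.22 (exact permutation test, two-sided p = 0.514). For Casp1, whose own gene is deleted there, the same measure was -4.54, -4.13 and -4.74 in Casp1-/- against -1.27 to -1.44 in WT, far outside the WT range.

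In ASC-/- fat Casp4 was 8.16 ± 0.036 (SD, n = 3) against 8.03 ± 0.30 (SD, n = 4) in WT, a difference of 0.14 with a 95% interval from -0.20 to 0.48 (limma adjusted p = 1), and of 0.011 with the spike-in sets as a block. Relative to the macrophage markers it was -2.85, -2.59 and -2.39 in ASC-/- and the 4 WT values above, a difference of 0.031 (exact permutation test, two-sided p = 0.971).

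**Figure D2:**
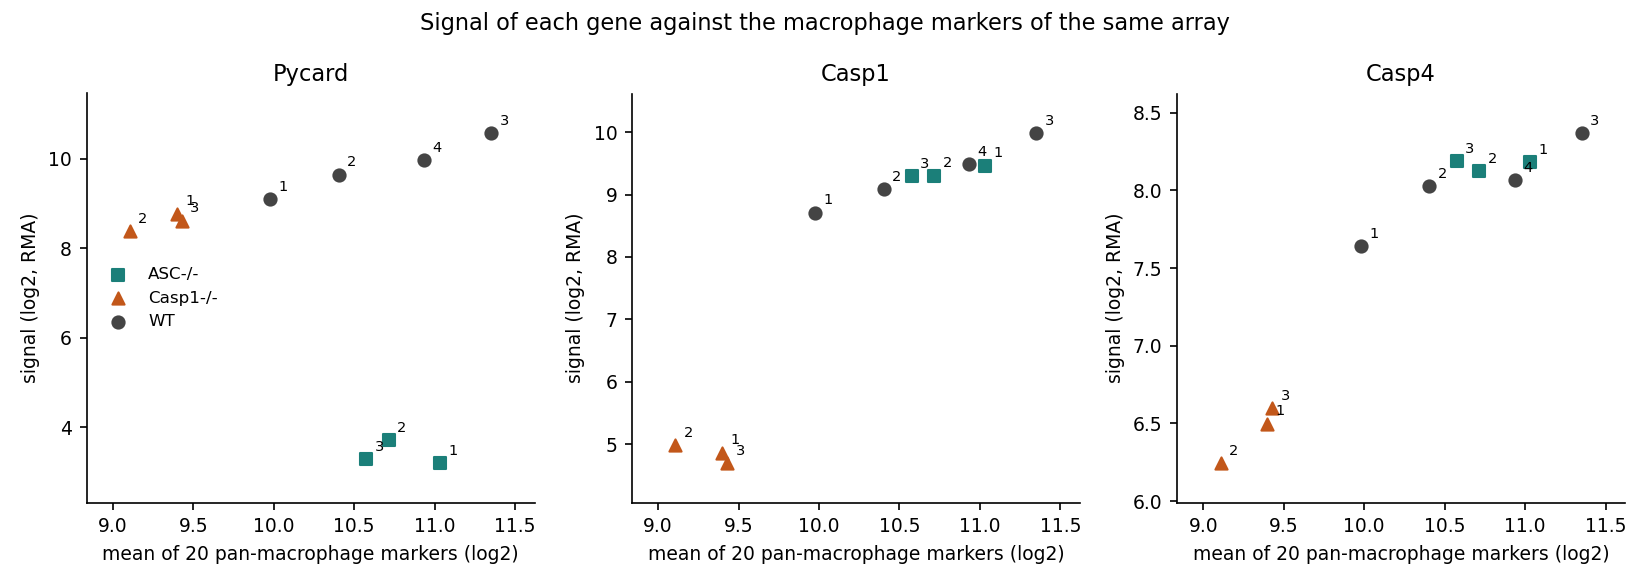
Log2 signal of Pycard, Casp1 and Casp4 (vertical axes, 1 panel each) against the mean of 20 pan-macrophage markers on the same array (horizontal axis, log2), with ASC-/- as squares, Casp1-/- as triangles and WT as circles; the small digits are replicate numbers. Pycard drops out of the trend on the 3 ASC-/- arrays and Casp1 on the 3 Casp1-/- arrays. Casp4 is lowest on the Casp1-/- arrays (6.24 to 6.60), which also have the lowest markers, and lies at 8.12 to 8.19 on ASC-/- and 7.64 to 8.37 on WT arrays. Over the WT arrays Casp4 spans 0.73 and the marker mean 1.37. Whether Casp4 differs at an equal marker level was not tested.

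The WT arrays themselves differed widely in all 3 genes and did so in one order. From low to high this order was replicate 1, 2, 4 and 3 for Pycard (9.10 to 10.57), for Casp1 (8.71 to 9.99), for Casp4 (7.64 to 8.37) and for the mean of the pan-macrophage markers (9.98 to 11.35). Pycard minus the marker mean spanned only -0.97 to -0.76 over these 4 mice and Casp1 minus the marker mean -1.44 to -1.27, whereas the raw signals spanned 1.48 and 1.28. Casp4 minus the marker mean ran over -2.98 to -2.34, a span of 0.65 that is close to the 0.73 of its raw signal. The ASC-/- arrays, with markers from 10.58 to 11.03, had a range of 0.16 for Casp1 and 0.065 for Casp4. The 3' minus 5' signal of actin was also higher on WT replicates 1 (1.05) and 2 (0.91) than on WT replicates 3 (0.53) and 4 (0.46), and its part in this order was not tested.

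Between the null genotypes all 3 genes differed. ASC-/- minus Casp1-/- was -5.19 ± 0.31 for Pycard, 4.51 ± 0.26 for Casp1 and 1.72 ± 0.16 for Casp4 (SE, limma adjusted p = 2.21e-04, 2.21e-04 and 0.00377). Of all probe sets 4.46% passed here, 2.46% as higher and 2.0% as lower in ASC-/-, and 34.2% had arrays that did not overlap. Of the 5 member probe sets these 3 passed, and their arrays did not overlap. Casp1 was 22.8-fold higher in ASC-/- than in Casp1-/- fat (95% interval 15.2 to 34.2). Its means differed 20.7-fold when background was allowed for as above, the spread between arrays left out. Casp4 was 3.29-fold higher (95% interval 2.55 to 4.23). With the spike-in sets as a block, which puts the 2 null genotypes in different sets, Casp4 was at 1.21 with adjusted p = 0.0737, while Pycard (-6.16) and Casp1 (3.70) stayed past the threshold. With the actin covariate, in which these genotypes do not overlap, Pycard was at -5.65, Casp1 at 4.08 and Casp4 at 1.52 (limma adjusted p = 6.58e-05, 6.58e-05 and 0.0136), and 355 probe sets passed in place of 2009. In order of level, Pycard ran ASC-/-, Casp1-/-, WT from low to high. Casp1 and Casp4 ran Casp1-/-, then WT and ASC-/-, whose difference did not pass the threshold.

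**Figure D3:**
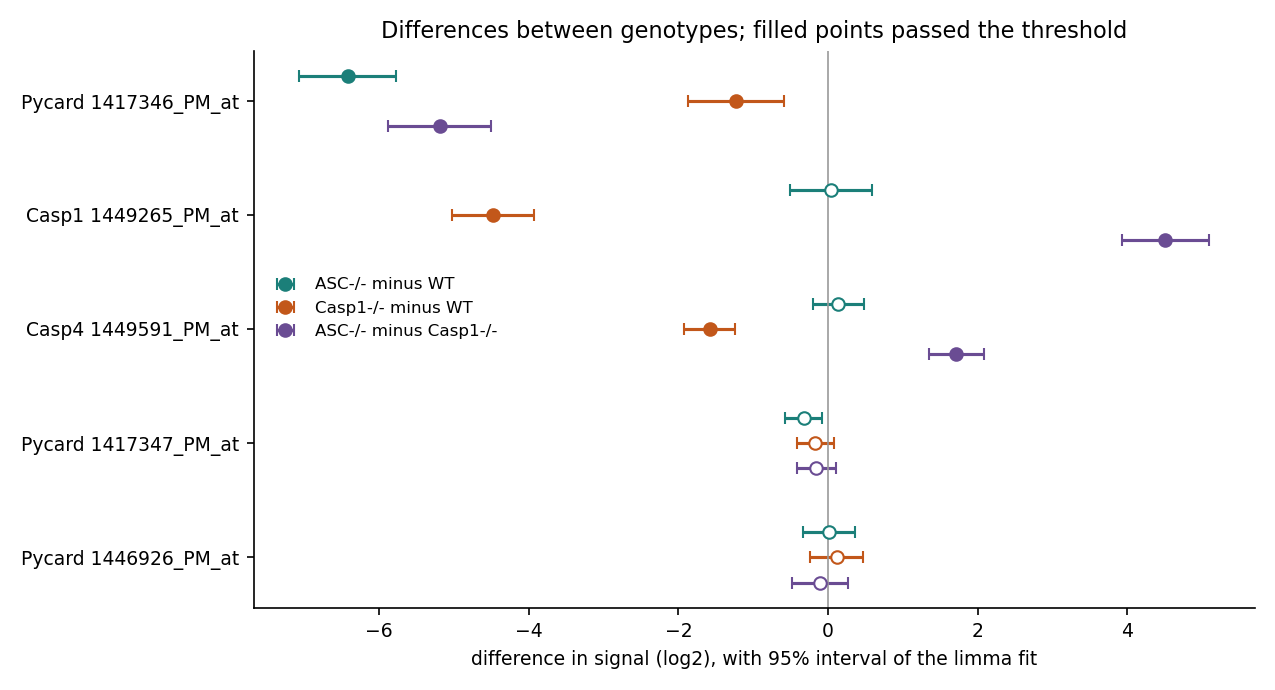
Differences in log2 signal (horizontal axis) between genotypes for the 5 probe sets, with the 95% interval of the limma fit; filled points passed the threshold, open ones did not. The deleted genes stand at -6.42 (Pycard, ASC-/- minus WT) and -4.47 (Casp1, Casp1-/- minus WT), Casp4 at -1.58 in Casp1-/- minus WT, and the 2 dim Pycard probe sets near 0 in all.

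The genes whose pattern was most like each member's were taken over the 7 arrays other than those of ASC-/- mice for Pycard, and other than those of Casp1-/- mice for Casp1 and Casp4. For Pycard these were 5031439G07Rik, Arpc5 (a subunit of the actin-nucleating Arp2/3 complex), the chemokine gene Cxcl16, the aldehyde reductase gene Akr1a1 and Arrb2 (beta-arrestin), with Pearson r of 0.997 to 0.999. For Casp1 they were Milr1, an inhibitory immunoglobulin receptor of mast cells, Tbc1d2b, Mrfap1, the actin gene Actg1 and Fcgr1, the high-affinity IgG receptor of macrophages, with r of 0.995 to 0.997. For Casp4 they were Rell1, the MHC class II invariant chain Cd74, Cass4, the interferon-induced Ifitm2 and Rpgrip1, with r of 0.989 to 0.992. Such values are common here: of 9882 genes above background, 1236, 1104 and 467 reached r of 0.9 with Pycard, Casp1 and Casp4 over those 7 arrays, and the macrophage markers vary over the same arrays. Casp4 and Casp1 had r of 0.913 with each other over the WT and ASC-/- arrays.

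Around Pycard on chromosome 7, the nearest measured genes were the serine protease genes Prss36 and Prss8 on one side and the integrin genes Itgam and Itgax on the other. In ASC-/- fat 0 of these 4 passed the threshold, with differences of 0.052 (Prss36), -0.30 (Prss8), -0.048 (Itgam) and 0.85 (Itgax). On chromosome 9 Casp4 is the gene after Casp1, and Casp12, a caspase of the endoplasmic reticulum, is the gene after Casp4. In Casp1-/- fat Casp12 was 8.81 ± 0.038 (SD, n = 3) against 8.62 ± 0.27 (SD, n = 4) in WT (limma adjusted p = 0.589), a difference of 0.19. Pdgfd, a platelet-derived growth factor gene 5 genes from Casp4, fell by 1.75 (limma adjusted p = 0.0207), at 5.68 ± 0.68 against 7.43 ± 0.46. Under the spike-in block it was at -2.03 (adjusted p = 0.131). On the other side of Casp1, the glutamate receptor gene Gria4 (0.26) and Msantd4 (0.028) did not pass.

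The partners of the 3 genes were followed as lists, each gene standing for 1 probe set. In ASC-/- fat 0 members of any list passed limma's threshold. Over all probe sets 11 of 45037 (0.0244%) passed it, and 6 of 17097 did with 1 probe set per gene. With so few calls, a count of 0 in lists of this size does not show that the partners were unchanged. An unadjusted p under 0.05 was reached by 1047 of the 45037. The medians there were 0.023 for 6 measured sensors, 0.037 for 13 upstream activators and regulators, -0.12 for 6 substrates and pore formers, 0.097 for 8 receptors and inhibitors, 0.048 for 6 other caspases, 0.066 for 10 other adaptors and 0.081 for 7 transcription factors, against -0.003 over all probe sets. Of the 6 sensors 4 (Nlrp3, Mefv, Nlrp6 and Nlrp12) had means in every genotype below 4.82, the highest mean of a background control, so the median and the count of 0 for sensors describe mostly background. The same held for 2 of the substrates and pore formers, 2 of the receptors and inhibitors, 1 of the other caspases and 1 of the other adaptors. The members with the smallest p in ASC-/- fat were the guanylate-binding protein genes Gbp3 (-0.33) and Gbp7 (-0.27), the alarmin gene Il33 (-0.36), Il1rap (0.23) and Il18bp (-0.15), Casp6 (0.066), Fadd (0.20) and Bcl10 (0.19), and Cebpb (0.22) and Irf1 (-0.25). Of the cell type markers they were Cd14 (0.27) and Lyz2 (0.17) for macrophages, S100a8 (0.75) and Csf3r (0.24) for neutrophils, and Lep (0.23) and Pparg (0.058) for adipocytes. Nlrp12, Nlrp3, Il1a, Casp14, the lymphocyte marker Cd3g and the epididymis marker Lcn8 also had the smallest p of their lists. Their means were below 4.82 in every genotype, so a difference in level cannot be told from background. Cd3g was 3.65 ± 0.078 (SD) in ASC-/- and 4.34 ± 0.35 (SD) in WT. Of the 11 lymphocyte markers 9 were below WT and 2 above (median -0.27), and 1 passed as lower with the actin covariate. Cd3d (4.19 in ASC-/- and 4.90 in WT) and the epididymis marker Defb2 (4.18 and 5.56) were below it in ASC-/- fat. The lymphocyte, neutrophil and epididymis lists had 7 of 11, 3 of 5 and 3 of 5 markers at background in every genotype.

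In Casp1-/- fat 6 partner genes passed the threshold. Over all probe sets 4.86% passed it, and 1397 of 17097 did with 1 probe set per gene, as in the lists. Whether the lists exceed that share was not tested. Levels are means ± SD of the 3 Casp1-/- arrays against the 4 WT arrays. Among 6 sensors Naip2, which detects bacterial secretion proteins for NLRC4, fell 3.42-fold (5.23 ± 0.17 against 7.0 ± 0.59, limma adjusted p = 0.013). Among 13 activators and regulators P2rx7, the ATP receptor upstream of NLRP3, fell 2.20-fold (adjusted p = 0.0352). Among 8 receptors and inhibitors Il1rn, the antagonist of the interleukin-1 receptor, fell 6.16-fold (5.93 ± 0.53 against 8.55 ± 0.80, limma adjusted p = 0.0147). Il1rap, the accessory chain of that receptor, was 4.69 ± 0.19 against 5.37 ± 0.20 (limma adjusted p = 0.0289). It was not above the brightest control on any of the 3 Casp1-/- arrays. By the means it was thus at least 1.37-fold lower, a bound that leaves out the spread between arrays. Spi1, which encodes the myeloid factor PU.1, fell by 2.30 (5.78 ± 0.55 against 8.08 ± 0.96, adjusted p = 0.0288), 1 of 7 transcription factors. Card10, a scaffold of the CARD family in non-immune cells, was the only 1 of 10 other adaptors to pass and rose 1.76-fold (adjusted p = 0.019). Under the spike-in block, which leaves 1 WT array on that side, none of these 6 genes passed: Naip2 was at -1.05, P2rx7 at -0.75, Il1rn at -1.53, Spi1 at -1.01 and Card10 at 0.86, and the limma adjusted p of the 6 ran between 0.153 and 0.497. With the actin covariate all 6 passed (adjusted p = 0.0095 to 0.0434). The list medians were -0.10 for the sensors, 0.011 for the activators and regulators, -0.13 for the receptors and inhibitors, -0.30 for the transcription factors and 0.19 for the adaptors, against 0.015 over all probe sets.

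In Casp1-/- fat, of 6 other caspases, Casp12 beside Casp4 among them, 0 passed (median -0.096), Casp2 being at -0.25 and Casp14 within the background range, and of 6 substrates and pore formers 0 passed (median 0.073). In this comparison 10659 probe sets had an unadjusted p under 0.05, among them those of Gsdme (0.40) and Ninj1 (-0.58), which act in pore formation and membrane rupture. Il18, a substrate of caspase-1, was 8.14 ± 0.32 in Casp1-/- fat and 7.99 ± 0.19 in WT (limma adjusted p = 0.64). Il1b was 4.17 ± 0.14 and 3.98 ± 0.27, and Nlrp3 4.24 ± 0.063 and 4.34 ± 0.13, means that lie within the background range, and Gsdmd was not analysed here. Of the macrophage markers, those with the smallest p were Lcp1 (3.48-fold lower), Tyrobp (2.84-fold), Cd68 (4.33-fold), Mpeg1 (3.09-fold), Adgre1 (3.92-fold) and Fcgr1 (3.48-fold). Pycard was 2.35-fold and Casp4 2.99-fold lower. The 6 markers that did not pass were Mertk (1.08-fold lower), Lyz2 (1.15-fold), Aif1 (1.57-fold), Csf1r (2.0-fold), Cd14 (2.45-fold) and Itgam (3.67-fold), so the markers did not fall alike. Of the adipocyte markers 1 of 7 passed, Pparg, the master regulator of fat cells, which rose 1.84-fold (adjusted p = 0.0269), and was at 0.95 with the spike-in sets as a block (adjusted p = 0.216). No marker of neutrophils (5 measured), lymphocytes (11) or epididymis (5) passed, those nearest being Csf3r (-0.35), Nkg7 (4.51 in Casp1-/- and 5.06 in WT fat) and Adam7 (5.65 and 4.45), beside Camp, Cd8b1 and Lcn8, whose means were below 4.82 in every genotype.

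**Figure D4:**
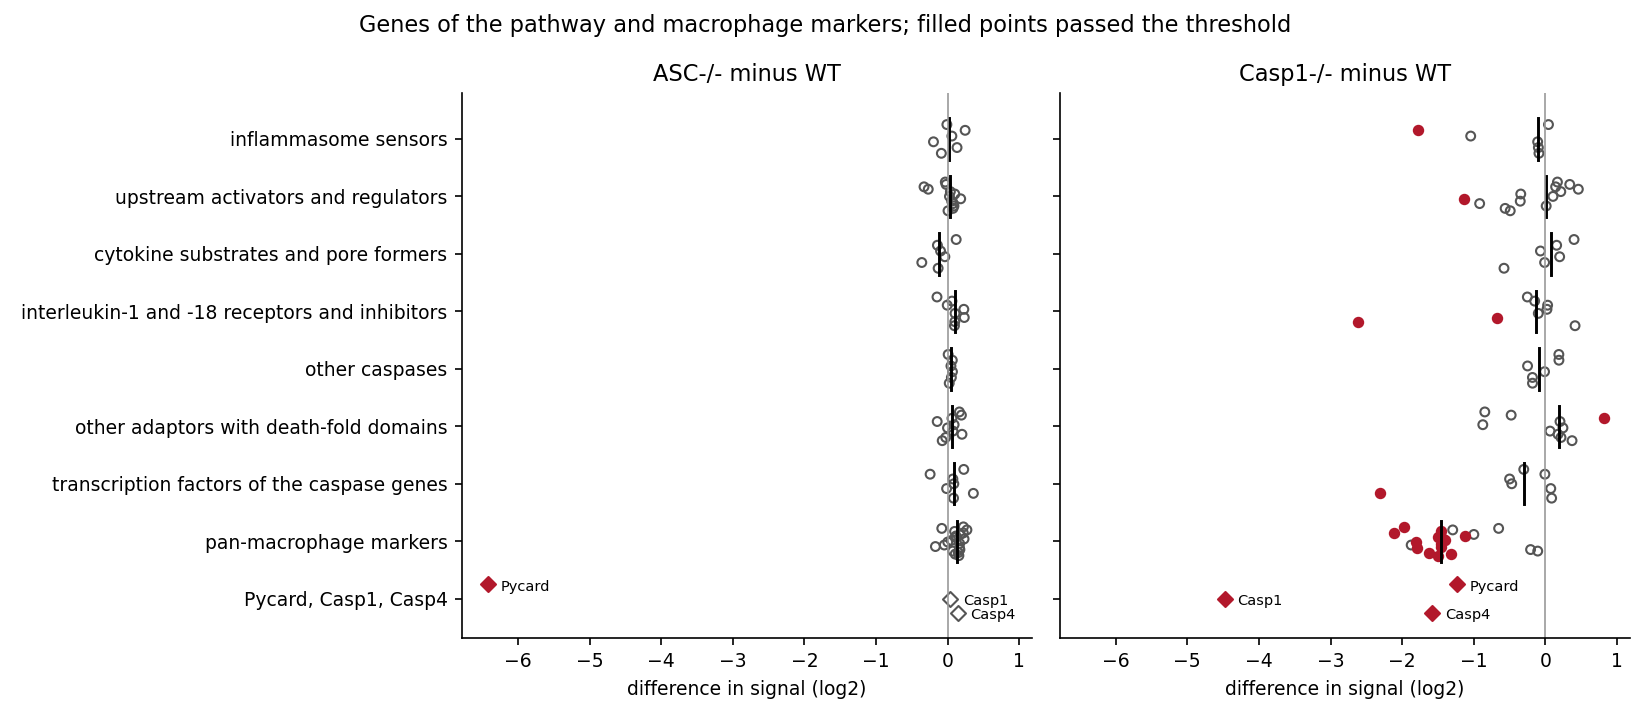
Differences in log2 signal (horizontal axis) of the genes of 8 lists (rows, 1 point per gene, black line for the list's median) and of Pycard, Casp1 and Casp4 (diamonds), for ASC-/- minus WT and Casp1-/- minus WT; filled points passed the threshold. In ASC-/- fat only Pycard is filled, while in Casp1-/- fat 14 macrophage markers, all 3 diamonds and 1 or 2 genes in several lists are.

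Between the null genotypes, a comparison that shares the Casp1-/- arrays with the one above, several partners differed. Over all probe sets 4.46% passed here, and 1264 of 17097 did with 1 probe set per gene. ASC-/- minus Casp1-/- was 2.02 for Naip2, 1.32 for P2rx7, 2.72 for Il1rn, 2.66 for Spi1 and -0.76 for Card10, all past the threshold, as were Pparg (-0.82), 14 of 20 macrophage markers (higher in ASC-/-), Apaf1 (1.01), the apoptosome scaffold, and Cebpb (0.53), a factor of adipocytes and macrophages. Il1rap passed too, at 5.60 in ASC-/- and 4.69 in Casp1-/- fat, where it was not above background. By the means it was at least 1.61-fold higher, a bound that leaves out the spread between arrays. Under the spike-in block 0 of these genes and 0 of the 20 macrophage markers passed (limma adjusted p of at least 0.362). With the actin covariate Naip2 (1.62, adjusted p = 0.0324) and 4 of the macrophage markers did. Il18 (-0.30) and Ninj1 (0.45) did not pass, nor did Casp2 (0.29) and Casp8 (0.23), the initiator caspase of death receptors.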

How the data were processed

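RNA of 1 mouse per array was copied from an oligo-dT primer and read on Affymetrix HT_MG-430 PM arrays, per the labels' protocols. The authors deposited log2 signals. RMA is the tool that the submitters' processing notes name, without a version. It subtracts background, gives all arrays one distribution (medians of 4.29 to 4.36) and compresses changes near background. The genome build was not given in the sources used here.

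Without 104 controls, 45037 probe sets entered limma 3.58.1 (R 4.3.3), where each genotype had its own mean and all 10 arrays shared one spread (7 residual, 2.85 prior degrees of freedom). Two-sided p-values were adjusted by Benjamini and Hochberg over all of them, with 0.05 as the threshold. In lists the probe set with the highest mean stood for a gene, and genes with no probe set of 1 symbol were not analysed here. Exact permutation tests used scipy 1.17.1. The fit was tested on simulated data.

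Members and lists were chosen with earlier results of these data known. Named are all member probe sets; of each list up to 6 members past the threshold or else 2 with the smallest p; Nlrp3, Il1b and Il18; 2 measured neighbours on each side; and the 5 genes with the highest Pearson r. Alternatives were other normalizations, filters, rows, empirical Bayes steps, array weights, the compared groups alone, blocks, a covariate and leaving out arrays.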

Additional observations from a re-analysis of the deposited data

How the results depend on the processing

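The differences of Pycard in ASC-/- fat and of Casp1 in Casp1-/- fat kept their direction and stayed past the threshold under every alternative run (-6.87 to -6.17 and -4.96 to -3.86, the last with a lone WT array), as did both between the null genotypes. The fall of Casp4 in Casp1-/- fat missed the threshold with the replicate number as a block (replicate block, -1.57, adjusted p = 0.0501) and on the arrays with high spike-in signal (-1.20), and its difference between the null genotypes with the spike-in sets as a block (1.21). That of Pycard in Casp1-/- fat missed it in a fit of the 2 groups alone (-1.23), with the replicate block (-1.18), with the spike-in block and on the arrays with high spike-in signal (-0.51 each), and ranged from -1.47 to -0.98 when 1 array was left out. Same-numbered arrays did not deviate together (correlations from -0.26 to 0.16, 3 of 9 pairs over 0.1), so the replicate number marks no known pairing. The high spike-in arrays hold 1 WT array, assumed to vary like the Casp1-/- arrays, so those values show neither a call kept nor a call lost.

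Differences near 0 changed sign. Casp1 in ASC-/- fat was -0.047 with array weights, -0.17 with the spike-in block or on arrays with low spike-in signal, -0.18 with the actin covariate, -0.38 without the 3 arrays with epididymis signal, and -0.17 to 0.26 without single arrays. Casp4 there was -0.053 without the epididymis arrays. The dim Pycard probe set 1446926_PM_at was at -0.082 in ASC-/- fat with the spike-in block or low spike-in arrays, -0.064 with the actin covariate, -0.11 without the epididymis arrays (-0.084 in Casp1-/- fat) and -0.13 to 0.085 without single arrays; 1417347_PM_at was at 0.033 in Casp1-/- fat with the spike-in block or high spike-in arrays. Relative to the macrophage markers in ASC-/- fat, Casp4 was at -0.018 with their median and -0.083 to 0.15 without single arrays, and Casp1 at -0.14 to 0.002 without single arrays. None of these passed, and the cause was not tested.

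Counts of probe sets past the threshold depended strongly on the fit. In ASC-/- against WT they were 11, but 6 with 1 probe set per gene, 4 in the 2 groups alone or with the replicate block, 3 on low spike-in arrays, 5 without the epididymis arrays and 5 (without any 1 of the ASC-/- arrays) to 11 without single arrays, with 6 without WT replicate 4. In Casp1-/- against WT they were 2189, but 1397 with 1 probe set per gene, 4865 with array weights, 525 in the 2 groups alone, 18 with the replicate block, 216 with the spike-in block, 393 on high spike-in arrays, 6872 without the epididymis arrays, and 79 (without Casp1-/- replicate 2) to 5765 (without WT replicate 1) without single arrays, also moving by over 1.5 times without Casp1-/- replicates 1 or 3, WT replicate 4, or ASC-/- replicates 2 or 3. Between the null genotypes they were 2009, but 1264, 5523, 6243, 52 and 118 in the same order up to the spike-in block, 355 with the actin covariate, and 96 (without ASC-/- replicate 1) to 4596 (without WT replicate 3) without single arrays, also moving by that much without WT replicate 1, ASC-/- replicates 2 or 3, or any 1 of the Casp1-/- arrays. Restricting the fit to the spike-in or epididymis subsets was chosen after the data had been seen. Precision is set by the small number of arrays, and RMA compresses changes of dim probe sets.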

Other observations

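Over all 10 arrays, deletions included, the genes most like each member were others than over the 7 arrays. For Pycard they were the interferon-induced Xaf1, the cytokine gene Tslp and Dock2, which drives leukocyte migration, with Pearson r of 0.901 to 0.913, and these 3 were the only genes of 9882 to reach 0.9. For Casp1 they were Stom, Hs6st1 and the taurine transporter gene Slc6a6 (r of 0.979 to 0.98), and for Casp4 the cathepsin inhibitor gene Cstb, the lipid droplet coat gene Plin2 and Arhgap25 (0.985 to 0.992). Casp1 and Casp4 themselves had r of 0.985 over the 10 arrays, in which the Casp1-/- arrays form a group of their own.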
